A study of Mus musculus with 36 samples.

Results

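Esm1 and Htra1 were followed in the livers of mice heterozygous for the Pik3r1 Y657* allele and of wild-type mice across a fasting and refeeding cycle. They are 2 of the 38283 genes in the deposited count table, and both were among the 13945 genes that passed the filter on low counts and were tested. They were picked from these same data, Esm1 for its genotype difference in the fed and in the fasted state and Htra1 for that in the refed state. Those 3 differences are therefore given as descriptions, without a test. Tests by genotype are given for Esm1 in the refed state and for Htra1 in the fed and fasted states, and of the responses to feeding only that of Htra1 from fed to fasted was tested, since the others reuse mice whose values entered the choice.

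Esm1 encodes endocan, a proteoglycan that carries a dermatan sulfate chain and is secreted mainly by endothelial cells. It is known as a marker of the tip cells that lead new vessel sprouts, and vascular endothelial growth factor (VEGF) raises its transcript. Htra1 encodes a secreted serine protease of the HTRA family, which cleaves proteins of the extracellular matrix and is known for effects on TGF-beta signalling. Pik3r1 encodes the p85alpha regulatory subunit of phosphoinositide 3-kinase, which carries the signal of the insulin receptor. In the liver, sinusoidal endothelial cells line the plates of hepatocytes, and Wnt signals from the endothelium of the central vein maintain the pericentral hepatocytes, which make glutamine synthetase (Glul).

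Total RNA from the livers of 36 mice aged 16 weeks on a C57Bl/6J background was sequenced, 6 mice in each of 6 groups. Wild-type mice and mice carrying 1 copy of Pik3r1 Y657* (here the mutant mice) had chow ad libitum (fed), were without food for 16 h (fasted), or had chow again for 6 h after such a fast (refed). The allele is a germline knock-in, so every liver cell type carries it, and the fed and fasted mice are described as male in the study. Each library is a separate mouse and is named here as in its label, with ALC for fed, ONF for fasted and RF6 for refed, then WT or MT and the number of the mouse. Total counts ran from 8839481 to 19542778 per mouse, and the summed level of 6 hepatocyte markers ran from 47254 to 89068 CPM (counts scaled to the same library size), as a liver sample gives. In bulk RNA of this kind, fewer cells of a type and less RNA per cell cannot be told apart.

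Esm1 (ENSMUSG00000042379) lies on the plus strand of chromosome 13, at chr13:113209659-113218098 of the mouse genome build GRCm38 (GENCODE M21), and has 3 exons and 1 annotated transcript. Its start is 11.4 Mb from that of Pik3r1, which lies on the same chromosome. Htra1 (ENSMUSG00000006205) lies on the plus strand of chromosome 7, at chr7:130936111-130985660, with 5 annotated transcripts whose exons merge into 11. Gzmk overlaps the span of Esm1 on the minus strand, and a long transcript of Fgfr2 overlaps that of Htra1, but neither shares an exonic base with the gene it overlaps. Gzmk had 49 counts over the 36 mice. The bases just upstream of each gene are shown because they are where transcription factors that answer to insulin could bind, and they come from RefSeq on build GRCm38.p6, both on the plus strand. For Esm1 they are chr13:113209409-113209658, and for Htra1 chr7:130935953-130936110, up to the annotated start of the gene. Capitals mark the matches to the motifs searched.
Esm1 upstream: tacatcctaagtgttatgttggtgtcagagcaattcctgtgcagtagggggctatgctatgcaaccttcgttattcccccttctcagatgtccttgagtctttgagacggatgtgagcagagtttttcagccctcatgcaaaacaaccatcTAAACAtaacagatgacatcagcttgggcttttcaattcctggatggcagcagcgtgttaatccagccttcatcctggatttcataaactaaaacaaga
Htra1 upstream: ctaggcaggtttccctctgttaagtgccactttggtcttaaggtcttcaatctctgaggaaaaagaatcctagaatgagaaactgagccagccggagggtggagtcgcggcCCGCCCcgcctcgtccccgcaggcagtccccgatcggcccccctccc

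The windows differed in composition. The 250 bases before Esm1 were 44% G or C with 3 CpG, above 21.1% of the 32851 mouse promoters over the same positions. The 158 bases before Htra1 were 60.1% G or C with 9 CpG, above 76.3%. Comparisons for Htra1 used the first 158 of the 250 bases before each promoter's start. They leave out the bases nearest to that start, whereas the Htra1 window ends at its annotated start. The motifs were searched on both strands. The element GTAAACA, which FOXO factors bind when insulin signalling is low, was in neither window, and 3.17% of promoters hold it in the longer window and 2.1% in the shorter. Its shorter core TAAACA, which the longer element contains, was found once before Esm1, 99 bases upstream of the start, as in 12% of promoters, and not before Htra1. A GC box, GGGCGG, was found once before Htra1, on the minus strand, 47 bases upstream of the annotated start, and not before Esm1. In the first 158 of the 250 bases before their starts, 17.8% of promoters hold one, which is not a share for bases close to the start. Neither window held TATAAA or CCAAT. A match in letters is a description and does not show that a factor binds.

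Esm1 was higher in mutant than in wild-type livers. In the fed state it ran from 0.454 to 2.57 CPM in wild-type mice with a median of 1.22, and from 2.64 to 16.7 CPM in mutant mice with a median of 7.41 (n = 6 each). In the fasted state wild-type mice ran from 0.21 to 1.51 CPM with a median of 0.802, and mutant mice from 2.31 to 14.4 CPM with a median of 7.05. In both states the lowest mutant mouse lay above the highest wild-type mouse. The log2 fold change was 2.67 (standard error, SE, 0.65) in the fed state and 3.30 (SE 0.70) in the fasted state. These are the values for which the gene was chosen, and 0.495% and 2.56% of all genes tested lay higher in mutant mice without overlap in the fed and fasted states, respectively.

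The refed mice did not enter that choice. Refed wild-type mice ran from 0.172 to 0.927 CPM of Esm1 with a median of 0.408, and refed mutant mice from 0.726 to 12.6 CPM with a median of 1.62. RF6_MT_897 was the only refed mutant mouse inside the wild-type range, and 5 of 6 mutant mice lay above it. Among these, RF6_MT_810 and RF6_MT_898 had 9.44 and 12.6 CPM, and the other refed mutant mice had at most 2.0. The log2 fold change was 3.44 (SE 0.77, 95% interval 1.88 to 5.01) with an unadjusted p of 9.5e-05, and it did not pass adjustment over all genes (adjusted p = 0.146, edgeR's quasi-likelihood test, Benjamini-Hochberg). In that state 4 genes were called by this test, 0.0287% of those tested. Esm1 passed in edgeR's likelihood ratio test (adjusted p = 0.0042) and in DESeq2's Wald test (adjusted p = 0.0017), which called 18 and 25 genes in the refed state. The refed difference of Esm1 did not pass in the other 6 alternative settings, nor when any 1 refed mouse was left out. The genotype difference of Esm1 differed between states by 0.14 to 0.77 on the log2 scale, with SEs from 0.97 to 1.03, and these differences were not tested because they contain the contrasts that chose the gene.

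**Figure D1:**
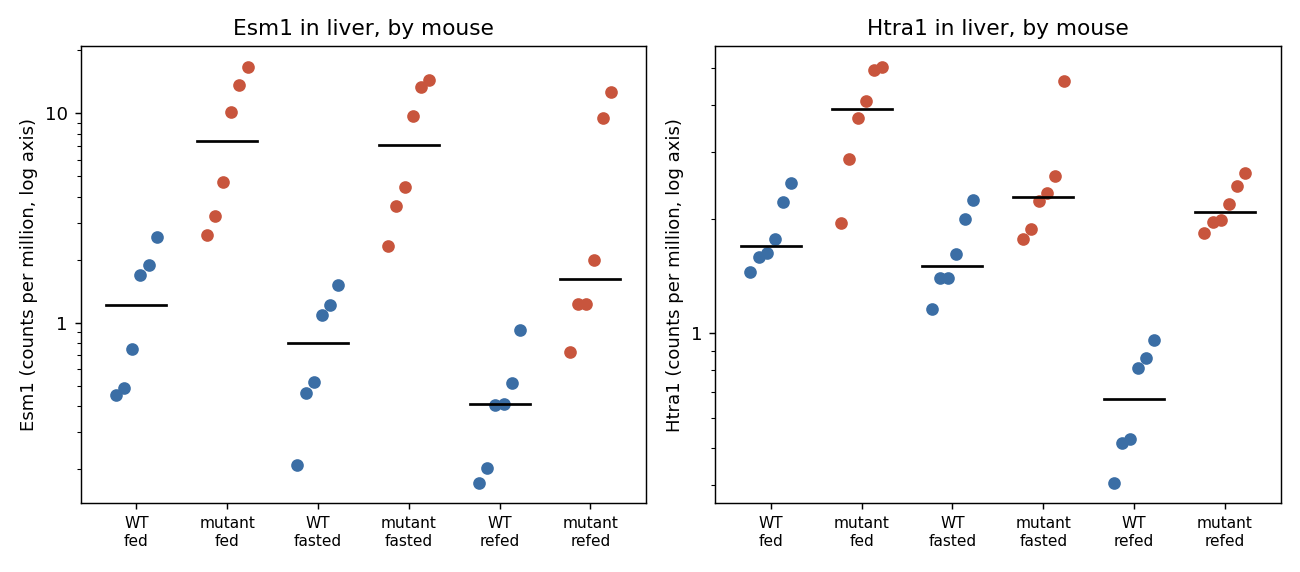
Esm1 (left) and Htra1 (right) in CPM on a log axis, with 1 point per mouse (blue wild type, red mutant) and a black line at the median of each group of 6. Esm1 in mutant mice sits above all wild-type mice of the same state when fed or fasted and with the exception of 1 mouse when refed, and Htra1 is lowest in refed wild-type mice.

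Within the mutant mice Esm1 was spread over a wide range. It varied 6.32-fold from the lowest to the highest mutant mouse in the fed state, 6.24-fold in the fasted state and 17.3-fold in the refed state, against 5.66-fold, 7.18-fold and 5.38-fold in wild-type mice. The biological coefficient of variation of Esm1 in the fit was 0.736, above 99.1% of the genes tested. The 18 mutant mice fell on either side of a gap between 4.68 and 9.44 CPM. Above it were 8 mice, namely ALC_MT_866, ALC_MT_868 and ALC_MT_869, ONF_MT_806, ONF_MT_827 and ONF_MT_922, and RF6_MT_810 and RF6_MT_898. The highest wild-type mouse had 2.57 CPM. The 10 mutant mice below the gap still included all 3 of the lower fed mice, at 2.64 to 4.68 CPM, and all 3 of the lower fasted mice, at 2.31 to 4.44 CPM, above each wild-type mouse of their state. Counts of Esm1 were between 2 and 34 in single wild-type mice, so that counting error alone is large there. The numbers of the fed mice fall into blocks, and the 3 fed mutant mice from ALC_MT_866 on lay above the gap and the 3 from ALC_MT_857 to ALC_MT_859 below it. Within the block of numbers that holds fed mice of both genotypes, the 3 mutant mice lay between 2.64 and 4.68 CPM and the 2 wild-type mice at 0.454 and 1.68, a difference of 1.76 in mean log2 CPM. Among fasted mice the difference was 3.37 within the lower numbers and 2.5 within the higher, and among refed mice 2.32 and 2.38, with 3 mice of each genotype in each. The labels do not say what the numbers stand for, and their part in the level of Esm1 was not tested.

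In both genotypes the median of Esm1 was lowest in refed mice, with overlap between the states. From fed to fasted its log2 fold change was -0.71 (SE 0.79) in wild-type and -0.09 (SE 0.56) in mutant mice. From fasted to refed it was -0.95 (SE 0.93) and -0.81 (SE 0.57). Refed against fed mice gave -1.67 (SE 0.86, 95% interval -3.43 to 0.09) in wild-type and -0.89 (SE 0.57, 95% interval -2.05 to 0.26) in mutant mice. The fed and fasted mice are those for whose genotype difference Esm1 was chosen, so these changes are given without a test, and the intervals left room for changes of more than 1 on the log2 scale. Without RF6_MT_898 the changes of refed mutant mice were -1.43 against fasted and -1.52 against fed mice. By median the groups ranked fed, fasted and refed in each genotype, with every mutant group above every wild-type group, and the 3 states of a genotype overlapped.

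Htra1 was a gene of similar level in wild-type liver. Per kilobase of exon, the median of fed wild-type mice was 0.592 CPM for Htra1 and 0.58 for Esm1, while that of fed mutant mice was 1.35 for Htra1 and 3.53 for Esm1. In refed mice, the state for which it was chosen, Htra1 ran from 0.405 to 0.961 CPM in wild-type mice with a median of 0.671 and from 1.84 to 2.64 CPM in mutant mice with a median of 2.09. The groups did not overlap, and the log2 fold change was 1.65 (SE 0.26). Of all genes tested, 0.272% lay higher in refed mutant mice without overlap.

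In the other states Htra1 was also higher in mutant mice, past the threshold when fed and not when fasted. Fed wild-type mice ran from 1.45 to 2.49 CPM with a median of 1.70, and fed mutant mice from 1.95 to 5.04 CPM with a median of 3.89. ALC_MT_866 was the only fed mutant mouse inside the wild-type range, and 5 of 6 lay above it. Htra1 was higher by 1.01 on the log2 scale (SE 0.23) and passed the test (adjusted p = 0.0179, edgeR's quasi-likelihood test), as did 2.37% of all genes in the fed state, 1.21% with higher values in mutant mice. The call was lost when only fed libraries were fitted (adjusted p = 0.0889), without ALC_WT_847 (0.0524) or ALC_MT_868 (0.0699), and with blocks of neighbouring mouse numbers as a covariate (0.999), while the log2 fold change stayed between 0.90 and 1.14. Within the only block with both genotypes, the 3 mutant mice lay between 2.88 and 4.93 CPM and the 2 wild-type mice at 1.45 and 2.49 CPM.

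Fasted wild-type mice ran from 1.16 to 2.25 CPM of Htra1 with a median of 1.51, and fasted mutant mice from 1.78 to 4.61 CPM with a median of 2.29. ONF_MT_806 stood apart from the other fasted mutant mice, of which the next highest had 2.60 CPM, and 3 of 6 mutant mice lay above the wild-type range. The log2 fold change of 0.66 (SE 0.24, 95% interval 0.17 to 1.15) did not pass (adjusted p = 0.0656, edgeR's quasi-likelihood test), where 13.1% of all genes did. Without ONF_MT_806 it was 0.41 (adjusted p = 0.308), and leaving out any 1 of ONF_WT_918, ONF_MT_826 and ONF_MT_922 brought it past the threshold, with the lowest adjusted p at 0.0446. The genotype difference of Htra1 was larger in refed than in fed mice by 0.65 (SE 0.35) and than in fasted mice by 0.99 (SE 0.36) on the log2 scale, values that contain the contrast that chose the gene and were not tested.

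In wild-type mice Htra1 was lower when refed than in the other states. Each of the 6 refed wild-type mice lay below each fasted and each fed wild-type mouse, with log2 fold changes of -1.24 (SE 0.27) against fasted and -1.43 (SE 0.27) against fed mice. The low values of the refed wild-type mice also make up the contrast for which Htra1 was chosen, so these values are a description and carry no test. Of all genes tested, 30.2% and 27.5% were called in these 2 comparisons, 13.7% and 14.3% as lower, and 7.73% and 7.47% were lower without overlap. The refed mutant mice entered that contrast too, and overlapped with fasted mutant mice at a change of -0.25 (SE 0.23) and with fed mutant mice at -0.78 (SE 0.23), where 31.3% and 26.1% of all genes were called, 13.1% as lower in the latter. From fed to fasted, where no refed mouse enters, the change of Htra1 did not pass the test (edgeR's quasi-likelihood test). It was -0.19 (SE 0.25, adjusted p = 0.612) in wild-type and -0.53 (SE 0.23, adjusted p = 0.0682) in mutant mice, where 32% and 32.9% of all genes passed. In mutant mice it passed without ONF_MT_806 (-0.78, adjusted p = 0.0069) or ALC_MT_866 (-0.67, adjusted p = 0.0192, edgeR).

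**Figure D2:**
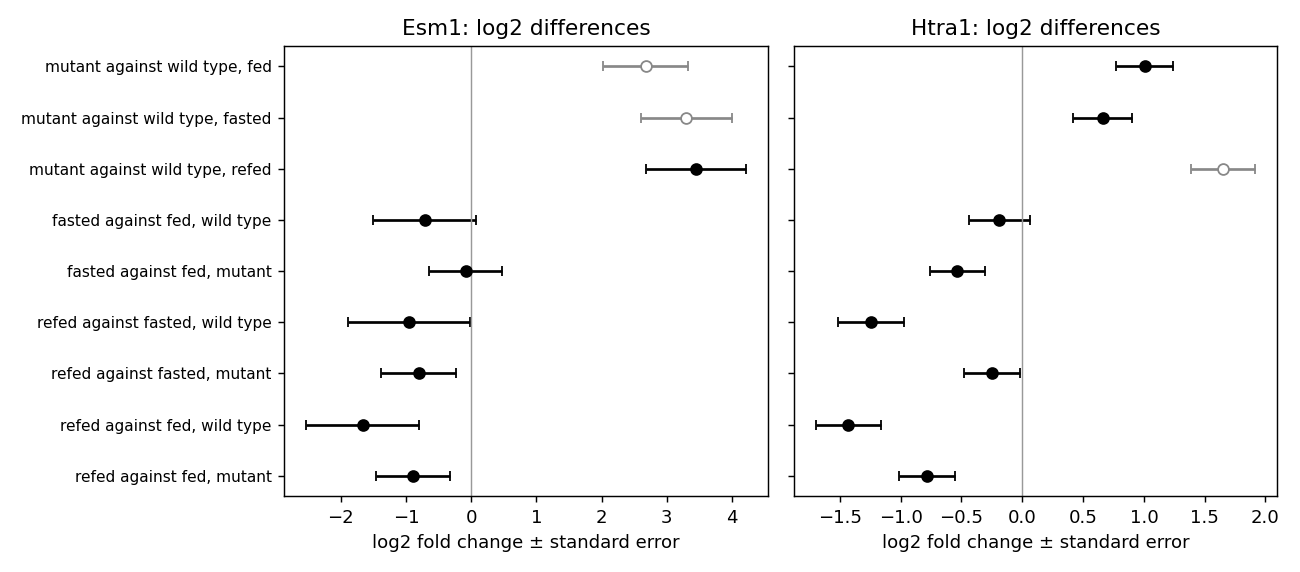
Log2 fold changes of Esm1 (left) and Htra1 (right), as points with 1 SE on either side, for 3 comparisons of genotype and 6 of feeding state (horizontal axis; the axes differ in range). Open grey points are the contrasts that chose the genes; Esm1 by genotype lies between 2.67 and 3.44, and the lowest value of Htra1 is -1.43 for refed against fed wild-type mice.

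No other tested member of the HTRA family was called by genotype. Htra2, a protease of the mitochondrial intermembrane space, differed by -0.09 to 0.07 on the log2 scale between genotypes, and Htra3, a secreted relative of Htra1, by -0.81 (SE 0.45) when fed, -0.09 when fasted and 0.09 when refed, with adjusted p of 0.352 or more (edgeR's quasi-likelihood test). Htra4, also secreted, had 109 counts over the 36 mice and did not pass the filter. Refeeding after the fast lowered Htra3 in both genotypes, where it fell by 1.84 (SE 0.46, adjusted p = 0.0019) in the wild type and dropped by 1.66 (SE 0.45, adjusted p = 0.0042, edgeR) in the mutant. It ran from 0.702 to 2.72 CPM in fasted and from 0.0587 to 0.927 CPM in refed wild-type mice, with overlap.

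Among 16 reported substrates of HTRA1, 14 were tested. Dcn, the small proteoglycan decorin, was higher in mutant mice when fed (log2 fold change 0.43, SE 0.12, adjusted p = 0.0407) and when fasted (0.42, SE 0.12, adjusted p = 0.0150, edgeR's quasi-likelihood test). In the fasted state Nid2, the basement membrane protein nidogen-2, was also higher (0.58, adjusted p = 0.0454) and Igfbp5, a binding protein of insulin-like growth factors, lower (-0.77, adjusted p = 0.0257, edgeR). That made 1 of 14 in the fed state and 3 of 14 in the fasted state, or 7.14% and 21.4%, against 2.37% and 13.1% of all genes, and none in the refed state. The median log2 fold change was 0.15, 0.09 and 0.11 in the fed, fasted and refed states, against 0.01, 0.00 and 0.01 over all genes. Of 26 tested genes of TGF-beta and BMP signalling none was called when fed or refed, and 5 were called when fasted, 1 higher and 4 lower (19.2%, against 13.1% of all genes). In fasted mice Ctgf, which encodes connective tissue growth factor, was higher by 1.98 (SE 0.43, adjusted p = 0.0023) and ran from 15.3 to 60.6 CPM in mutant against 2.88 to 15.2 CPM in wild-type mice, without overlap. The targets of BMP signalling Id1, Id2 and Id3 and the inhibitor Smad7 were lower in the same mice, by log2 fold changes of -1.42, -0.72, -1.43 and -0.85 (adjusted p = 0.0261, 0.0183, 0.0021 and 0.0030, edgeR's quasi-likelihood test).

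Genes of VEGF signalling and endothelial tip cells were taken as the pathway of Esm1, and 31 of 34 passed the filter. In fed mice 6 were higher and 1 lower in mutants (22.6%, against 2.37% of all genes), with a median log2 fold change of 0.40. Angpt2, the ligand angiopoietin-2 of sprouting endothelium, ran from 1.29 to 4.46 CPM in fed mutant and from 0.545 to 1.28 CPM in fed wild-type mice, without overlap, and was higher by 1.59 (SE 0.40, adjusted p = 0.0269, edgeR's quasi-likelihood test). The receptor Flt4 was higher by 0.47 (SE 0.11, adjusted p = 0.0163), and the VEGF co-receptor Nrp1 was lower, by -0.58 (SE 0.14, adjusted p = 0.0197, edgeR). In fasted mice 5 were higher and 1 lower (19.4%, against 13.1%), with a median of 0.01 (6.43% of all genes were called higher). Those with the smallest p were Igfbp3, a binding protein of insulin-like growth factors made in non-parenchymal liver cells (1.04, SE 0.23, adjusted p = 0.0024), Robo4, an endothelial receptor (0.54, SE 0.12, adjusted p = 0.0025), and Angpt2 (1.59, SE 0.41, adjusted p = 0.0073, edgeR). In refed mice none was called, with log2 fold changes from -0.63 to 1.11. Without the 8 mutant mice above the gap in Esm1, 0 of these genes in fed and 1 in fasted mice were called. In that fit the fed and fasted states had 5 and 882 called genes in all, from 330 and 1821, and compared 3 mutant with 6 wild-type mice. The mice were left out by their Esm1, which the mean of this list followed (r = 0.84 over 36 mice). Fewer calls could thus be foreseen, and no conclusion is drawn from them.

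Markers of the endothelium as a whole were also counted. The summed level of 12 liver endothelial markers ran from 434 to 571 CPM in fed wild-type and from 502.7 to 639 CPM in fed mutant mice, from 589 to 649 against 557 to 662 CPM in fasted mice and from 449 to 588 against 478 to 524 CPM in refed mice. All 12 passed the filter. Of these, 1 was called in fed mice (Tie1, an endothelial receptor that is also on the VEGF list, 0.40, adjusted p = 0.0395) and 1 in fasted mice (Lyve1, a hyaluronan receptor of sinusoidal and lymphatic endothelium, 1.32, adjusted p = 0.0218, edgeR's quasi-likelihood test), and none in refed mice, or 8.33% in the fed and in the fasted state against 2.37% and 13.1% of all genes. All 12 had positive log2 fold changes in fed mice (0.02 to 0.78, median 0.18). In fasted mice 5 were positive (-0.19 to 1.32, median -0.03), and in refed mice 5 (-0.19 to 0.99, median -0.01). None of 6 markers of large vessel endothelium was called in any state, with median log2 fold changes of 0.44, 0.41 and 0.50 in fed, fasted and refed mice, against 0.40, 0.01 and 0.10 for the VEGF list. Their part in the level of Esm1 was not tested. Of 17 tested partners of endocan and enzymes of dermatan sulfate synthesis, 1 was called in fed mice (Met, the receptor of hepatocyte growth factor, -0.39, adjusted p = 0.0378) and 4 in fasted mice, 2 in each direction, or 5.88% and 23.5% against 2.37% and 13.1% of all genes. The latter were led by Csgalnact2, which starts the chondroitin chain (0.41, SE 0.09, adjusted p = 0.0031, edgeR).

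In the fasted state the pericentral hepatocyte markers were lower in mutant mice. All 6 were called, with log2 fold changes from -0.79 to -0.71 and a median of -0.76, where 6.63% of all genes were called lower. Glul ran from 885 to 1081 CPM in fasted wild-type and from 363 to 833 CPM in fasted mutant mice, without overlap (-0.77, SE 0.19, adjusted p = 0.0051, edgeR's quasi-likelihood test). Rgn, which encodes regucalcin, was lower by -0.73 (SE 0.13, adjusted p = 0.00018) and Oat, ornithine aminotransferase, by -0.71 (SE 0.17, adjusted p = 0.0044, edgeR). Without ONF_MT_806, or without all 8 mice above the gap in Esm1, 3 of the 6 were called. The mean of these markers ran against Esm1 (r = -0.73 over 36 mice), so fewer calls without the 8 mice could be foreseen. In fed and refed mice none of the 6 was called, with medians of -0.32 and -0.46, and Oat was at 0.39 (SE 0.17) in fed mice. Among 6 markers of central vein endothelium Kit, the stem cell factor receptor, was lower when fed (-0.87, adjusted p = 0.0093) and refed (-0.90, adjusted p = 0.0396), and Wnt9b, a Wnt ligand, when fasted (-1.03, adjusted p = 0.0364, edgeR). Of 6 periportal markers 1 was called when fed (Gls2, liver glutaminase, 0.64, adjusted p = 0.0490) and 1 when fasted (Arg1, arginase, 0.71, adjusted p = 0.00097, edgeR), both higher in mutant mice. For either list 1 of 6 is 16.7%, against 2.37% of all genes when fed, 13.1% when fasted and 0.0287% when refed.

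Genes were also ordered by how they followed Esm1 from mouse to mouse. After subtracting the mean of each group, the gene most like Esm1 over the 36 mice among 12600 genes with a mean of at least 1 CPM was Galntl2, a GalNAc transferase gene, with Pearson's r = 0.87 on log2 CPM, and Cyfip2 (0.80), Clca1 (0.79) and Tnfrsf21 (0.79) were also among the 5 most like. The least like were Sdr9c7 (-0.88), Myo6 (-0.83), Cyp4v3 (-0.81), Hlf (-0.80) and Acsl1 (-0.79). These are descriptions, into which scaling, liver composition or a batch that the labels do not name could enter. Since the mutant mice lay on either side of the gap, r was also taken on each side. That split is made on Esm1 itself and narrows its range. A weaker r on each side could thus be foreseen, here and below, and no conclusion is drawn from it. Over the 28 mice below the gap r was 0.77 for Galntl2 and -0.74 for Sdr9c7, and over the 8 mice above the gap 0.68 and -0.58. In the 18 wild-type mice alone it was 0.81 and -0.76. Galntl2 was also called by genotype in fasted mice (1.27, SE 0.33, adjusted p = 0.0086, edgeR's quasi-likelihood test), and Sdr9c7 in no state.

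**Figure D3:**
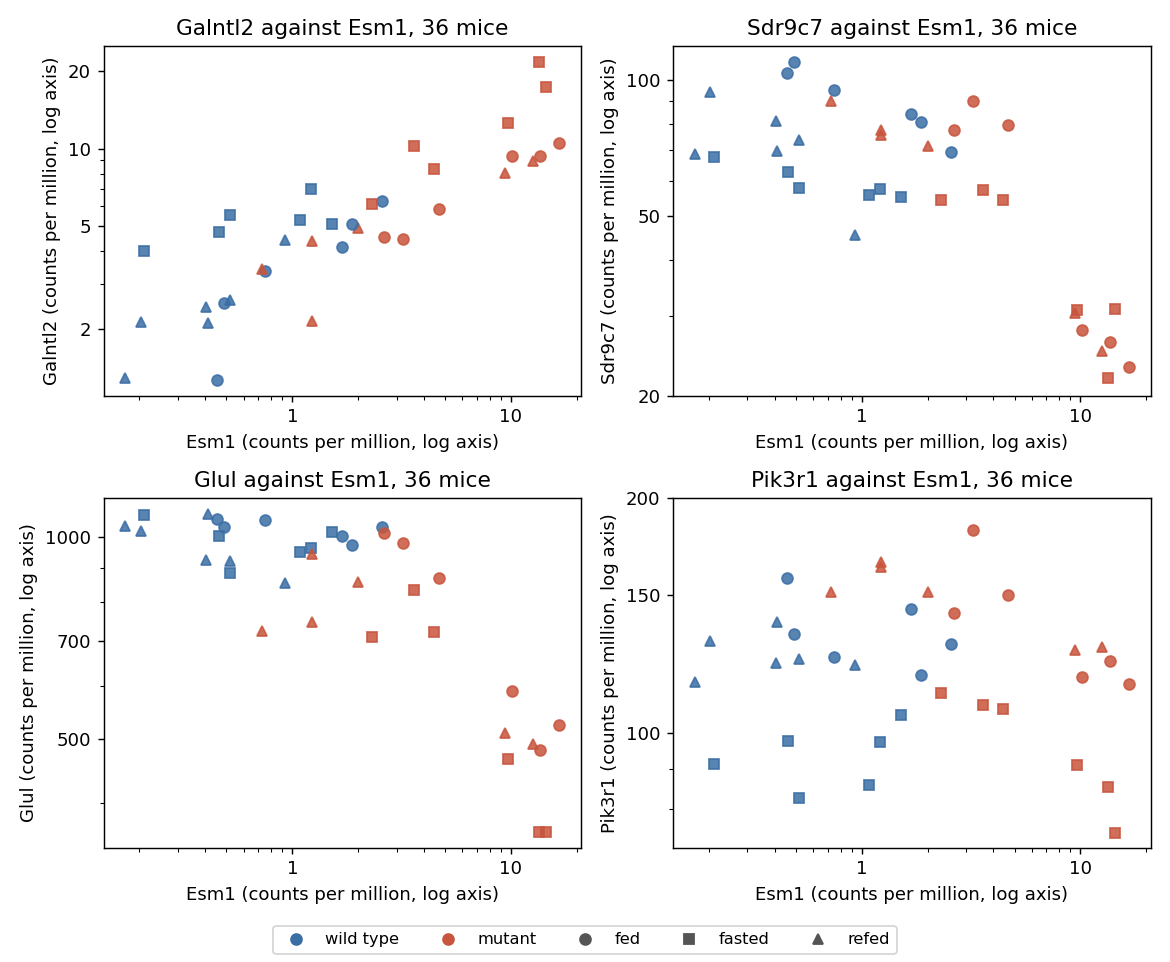
Galntl2, Sdr9c7, Glul and Pik3r1 against Esm1, both axes in CPM on a log scale, with 1 point per mouse (blue wild type, red mutant; circles fed, squares fasted, triangles refed). The 8 mutant mice at 9.44 CPM of Esm1 or more have the lowest Sdr9c7 (at most 31.2 CPM) and Glul (at most 590 CPM) of the 36 mice.

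The 8 mice above the gap in Esm1 were also at 1 end of the range of other genes, picked here after their values were seen. The 8 lowest values of Sdr9c7, a dehydrogenase of the short-chain family, were 21.9 to 31.2 CPM and came from the 8 mice with the highest Esm1, and the other 28 mice had 45.5 to 110 CPM. The 8 lowest values of Glul (363 to 590 CPM, the others 710 to 1084) and of Cyp1a2, a pericentral cytochrome P450 (57.3 to 148 CPM, the others 171 to 422), came from the same 8 mice. Over the 36 mice r with Esm1 was -0.78 for Glul and -0.78 for Cyp1a2. It was -0.27 and -0.44 over the 28 mice below the gap, and -0.78 and -0.50 over the 8 above it. Other pericentral markers did not separate in this way over the 36 mice. Cyp2e1, another pericentral cytochrome P450, was at 1631 to 4814 CPM in the 8 mice and at 3057 to 9950 CPM in the others. Within each state Cyp2e1 did separate, with the mice above the gap lowest. They had 2281 to 2686 CPM when fed, 1631 to 4814 when fasted, and 2162 and 3505 when refed. The other mutant mice had 3057 to 3992, 6092 to 7904 and 5060 to 5397 CPM in these states. The lowest wild-type mice had 3953, 7658 and 5941 CPM. The r of Cyp2e1 with Esm1 was -0.62 over the 36 mice, 0.12 below the gap and -0.51 above it. Oat had r = -0.01 over the 36 mice. Pik3r1 itself was not called by genotype in any state, with log2 fold changes of 0.04, 0.05 and 0.23 and adjusted p of 0.423 or more (edgeR's quasi-likelihood test). ALC_MT_866, ALC_MT_868 and ALC_MT_869 had 115, 118 and 123 CPM of Pik3r1 and the other fed mutant mice 142 to 182. ONF_MT_806, ONF_MT_827 and ONF_MT_922 had 74.5, 85.3 and 91.0 CPM and the other fasted mutant mice 107 to 112, and RF6_MT_810 and RF6_MT_898 had 128 and 129 CPM and the other refed mutant mice 152 to 166. In each state the mutant mice with the highest Esm1 thus had the lowest Pik3r1, with r = -0.84 over the 18 mutant mice and -0.06 over the 18 wild-type mice. Over the 28 mice below the gap r was also -0.06, and over the 8 mice above it -0.51. No label sets these 8 mice apart, so they were not averaged or tested as a group.

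Over lists, the mean of the VEGF and tip cell genes followed Esm1 with r = 0.84 over 36 mice, 0.76 in wild-type and 0.88 in mutant mice, and 0.74 below the gap. The mean of the pericentral hepatocyte markers ran against it, with r = -0.73 over 36 mice, -0.46 in wild-type and -0.82 in mutant mice, and -0.35 below the gap. Liver endothelial markers had r = 0.66, hepatocyte markers 0.29 and smooth muscle markers 0.01. Htra1 had no such partners. Over the 36 mice no gene reached r = 0.7 with it in either direction, while 3 genes were above 0.7 and 12 below -0.7 in the 18 wild-type mice and 7 and 6 in the 18 mutant mice. The 5 most like were Rbm28 (0.61), Klhl20 (0.59), Acbd6 (0.57), Rufy2 (0.53) and Dnase1 (0.53), and its r with the lists ran from -0.30 for pericentral markers to 0.15 for stellate cell and fibroblast markers, leaving aside its own family. Against 52 genes above 0.7 and 56 below -0.7 for Esm1, the 2 genes shared none of the 5 most like. Between Esm1 and Htra1 r was 0.06. Htra1 had 5 to 86 counts per mouse, and its spread within groups was 0.38 on the log2 scale, against 1.07 for Esm1. Counting error is a part of that small spread and limits how high r with Htra1 can be.

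**Figure D4:**
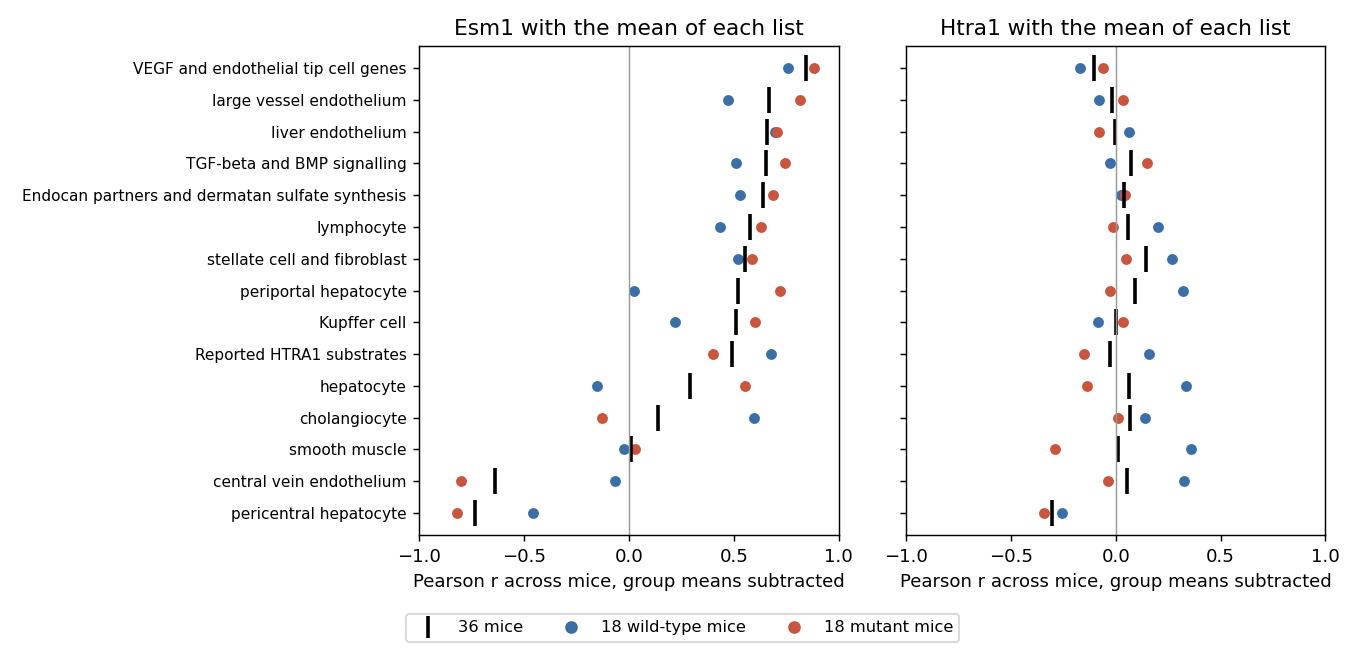
Pearson's r (horizontal axis) between log2 CPM of Esm1 (left) or Htra1 (right) and the mean of each gene list, after subtracting group means. Black bars stand for 36 mice, blue points for the 18 wild-type and red points for the 18 mutant mice. For Esm1 the values over 36 mice run from -0.73 for pericentral hepatocyte markers to 0.84 for VEGF and tip cell genes, and for Htra1 from -0.30 to 0.15.

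Since Esm1 lies on the chromosome that carries the targeted allele, its neighbours were listed. Within 15 Mb of the start of Pik3r1, 123 genes other than Pik3r1 and Esm1 were tested. Of these, 2 were called in fed mice (1.63%, against 2.37% of all genes), 16 in fasted mice (13%, against 13.1%) and none in refed mice. Esm1 had the largest log2 fold change of the window in fasted and refed mice. Hapln1 came close to it in fasted mice (3.23, SE 1.07, adjusted p = 0.0395, edgeR's quasi-likelihood test), at a mean of 0.635 CPM over all mice. In fed mice only Gzma, 109 kb from Esm1, was above Esm1 (3.46, SE 0.94, adjusted p = 0.0407, edgeR's quasi-likelihood test). Gzma was at 2.31 (SE 0.86, adjusted p = 0.0709) in fasted and 2.61 (SE 0.89, adjusted p = 0.325, edgeR) in refed mice. Gzma encodes granzyme A of cytotoxic lymphocytes and was at 0.0709 to 2.75 CPM in fed mutant and at 0 to 0.245 CPM in fed wild-type mice, with overlap. Of 4 tested lymphocyte markers Nkg7 was called in fed mice (2.78, SE 0.61, adjusted p = 0.0132, edgeR). The other tested neighbours nearest to Esm1 (Dhx29, Gpx8, Snx18, Arl15 and Ndufs4) had log2 fold changes between -0.32 and 0.44 in the 3 states, except Gpx8 in fasted mice (1.26), and of these Gpx8 (adjusted p = 0.0482) and Ndufs4 (0.44, adjusted p = 0.00057, edgeR) were called, both in fasted mice. None of the 6 tested genes nearest to Htra1 (Tacc2, Btbd16, Plekha1, Dmbt1, 2310057M21Rik and Pstk) was called by genotype in any state, with adjusted p of 0.0545 or more.

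**Figure D5:**
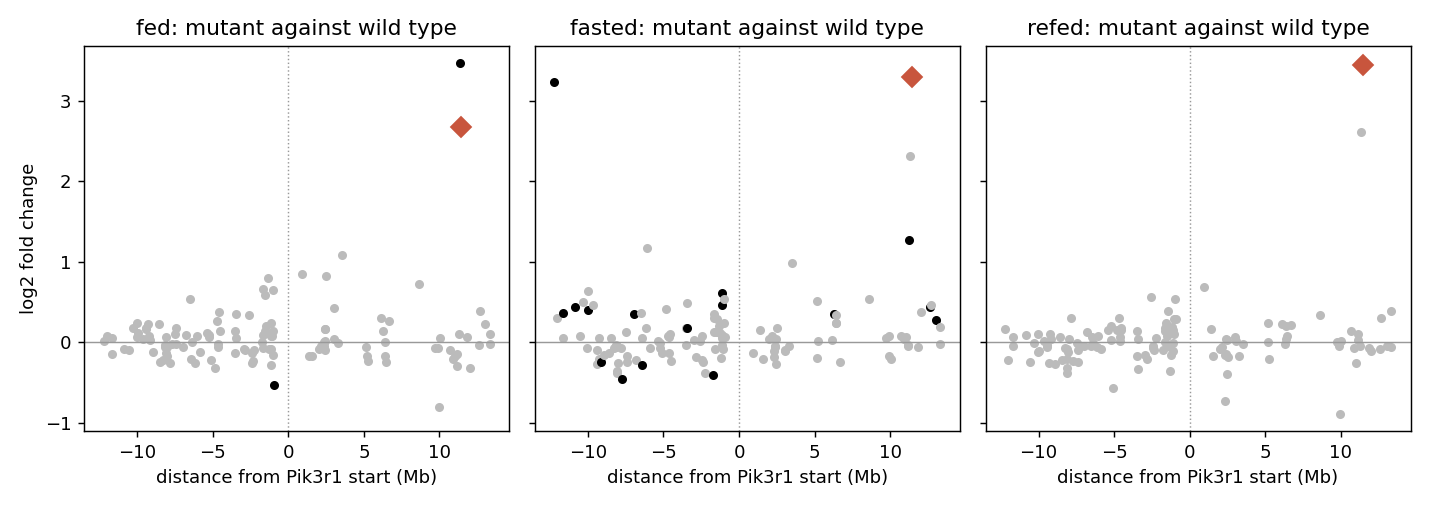
Log2 fold change between mutant and wild-type mice (vertical axis) against distance from the start of Pik3r1 in Mb (horizontal axis) for Esm1 and 123 other genes within 15 Mb, in fed, fasted and refed mice. The red diamond is Esm1 at 11.4 Mb, other genes called at an adjusted p under 0.05 are black and the rest grey. In fasted and refed mice Esm1 is the highest point, at 3.30 and 3.44.

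Set against all genes, Esm1 ranked 2nd in the fed state among 40 genes that were called, higher in mutant mice without overlap and at a mean of at least 1 CPM, between Cyp2c69 (3.18) and Cyp2c40 (2.27), members of a cytochrome P450 family whose near-identical copies can share reads. It ranked 1st of 318 in the fasted state, followed by E230001N04Rik at 2.75. Htra1 ranked 1st of 2 in the refed state, followed by Ints6 at 0.51. These ranks describe how the genes were picked and carry no test.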

How the data were processed

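Liver RNA of 36 mice was sequenced by the authors from stranded total RNA libraries as single reads. The values the authors deposited are estimated counts of reads for each gene in each mouse, not normalized. Their processing notes name Cuffdiff, SAMtools, featureCounts and edgeR without versions, and list build mm9, but 99.8% of the deposited loci found in GENCODE M21 overlap the gene on GRCm38, which was used for positions and lengths. The strand setting of the counting is not given in the sources used here. Of the counts above 0, 3.64% were not whole, and all were rounded. A second deposited table, of values the authors fitted per library, holds no spread between mice and was not used.

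Groups and mouse numbers came from the sample labels. Counts were filtered by filterByExpr over the 6 groups, scaled by TMM and fitted with edgeR 4.0.16 in R 4.3.3 (estimateDisp and glmQLFit, robust, 1 coefficient per group, 36 libraries). Contrasts were tested two-sided by glmQLFTest with Benjamini-Hochberg adjustment over 13945 genes at a threshold of 0.05, and standard errors were taken from the fold change and the F statistic. Log2 CPM used a prior count of 2. Libraries of a group were compared in 90 pairs, and in each the chi-square over genes was at least 7.00 times its degrees of freedom, so none repeated another. The fit was tested on simulated counts. DESeq2 1.42.0, limma 3.58.1 and other settings were alternatives. Where 2 rows share a symbol, the one with the higher mean was used.

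The members and the gene lists were chosen with earlier results of these data known. The text names the members, Pik3r1, the HTRA family, up to 3 called genes per list and contrast with the smallest p, the genes next in rank, 3 tested neighbours on each side, and the 5 genes most like each member, of which 1 is not reported here. Id1, Id2, Sdr9c7 and other genes running against Esm1, Glul, Cyp1a2, Lyve1, Gzma, Hapln1 and Nkg7, and the gap in Esm1, were singled out after their values were seen.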

Additional observations from a re-analysis of the deposited data

Results flagged for a closer look

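Of 36 groups of 6 mice examined (6 genes in 6 groups), 2 held a mouse far from the others by Dixon's criterion at the 95% level, and chance gives such a mouse in about 5% of groups. Htra1 in ONF_MT_806 was at 4.61 CPM, with the next highest at 2.60 CPM, a gap of 0.71 of the range of the group. ONF_MT_806 also had the highest Esm1 (14.4 CPM) and the lowest Pik3r1 (74.5 CPM) of the fasted mutant mice. Htra2 in ONF_WT_920 was at 7.30 CPM, with the next lowest at 11.3 CPM, a gap of 0.63 of the range.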

How the results depend on the processing

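Over 365 alternative values of the 18 results on Esm1 and Htra1, 6 changed sign and 346 kept their direction and their side of the threshold or moved by less than the spread between mice. This tally also sorts by adjusted p the feeding responses that are given here without a test. Many of its values are refits that leave out 1 mouse and share the other mice, so it is a description only. The spread between mice was 1.07 for Esm1 and 0.38 for Htra1 on the log2 scale. Over 9 alternative settings the fed genotype difference of Esm1 ran from 1.64 to 2.79, against 2.67 in the main fit. With so wide a spread, all 9 counted as unmoved. Esm1 in refed mice passed by the likelihood ratio test (3.37) and by DESeq2 (3.40), and not in the other 6 alternative settings. Within the low mouse numbers the genotype difference of refed Esm1 in mean log2 CPM was 2.32. Htra1 in fed mice did not pass with only the 2 groups fitted (1.0), with fed number blocks (0.93) or without the 8 mice above the Esm1 gap (1.02), the last 2 chosen after seeing the data. In fasted mice Htra1 was at 0.38 without those 8 mice (adjusted p = 0.485, edgeR). Leaving out each mouse in turn gave log2 fold changes by genotype of 2.82 to 3.72 for Esm1 refed, 2.37 to 2.98 fed and 3.04 to 3.50 fasted, and of 0.90 to 1.14 for Htra1 fed, 0.41 to 0.77 fasted and 1.54 to 1.80 refed. In mutant mice the change of Htra1 from fed to fasted ranged from -0.78 to -0.43 and from fasted to refed from -0.33 to 0.0017, that of Esm1 from -0.34 to 0.22 and from -1.43 to -0.55, and that of Esm1 from fed to refed from -1.52 to -0.59. The 6 changes of sign were among these, without ONF_MT_806 for Htra1 and without ALC_MT_866, ALC_MT_869, ONF_MT_826, ONF_MT_921 or ONF_MT_923 for Esm1 from fed to fasted. The number of genes called when fed was 330, against 516 by the likelihood ratio test, 644 by DESeq2, 207 without a filter, 30 with fed libraries alone and 5 without the 8 mice. When fasted it was 1821, against 882 without the 8 mice, and when refed 4, against 18, 25 and 2 by the likelihood ratio test, by DESeq2 and without the 8 mice. The cause was not tested. Neither gene had at least 10 counts in every library, so that filter gave no value, and with only refed wild-type mice and one other wild-type state fitted Esm1 did not pass the filter. Mouse number series could not be separated from feeding state for fed mice. Of the 5 genes most like Esm1, 1 was shared with the 5 in wild-type mice, 2 with those in mutant mice and 1 with those where group means were kept, and of those most like Htra1 none in any of these. No paired analysis was possible because each mouse number occurs once. The low counts limit what can be seen of Esm1 in wild-type mice.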

Other observations

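Markers of other liver cell types were compared by genotype. Of 10 markers of stellate cells and fibroblasts, Dcn was called higher in fed mutant mice, Dcn and Rgs5, a pericyte gene (log2 fold change 0.74, SE 0.21, adjusted p = 0.0157, edgeR's quasi-likelihood test), in fasted mutant mice, and none in refed mice, or 10% and 20% when fed and fasted against 2.37% and 13.1% of all genes. Their summed level ran from 334 to 509 CPM in fed wild-type and from 483 to 674 CPM in fed mutant mice. None of the 5 tested Kupffer cell markers was called in any state, with a median log2 fold change of 0.94 when fed, 0.02 when fasted and 0.21 when refed. Their summed level ran from 167 to 234 CPM in fed wild-type and from 156 to 559 CPM in fed mutant mice, with overlap. No marker of smooth muscle (3 tested), of cholangiocytes (5 tested) or of hepatocytes in general (6 tested) was called in any state, and of 4 tested lymphocyte markers Nkg7 alone was called, in fed mice (25%, against 2.37% of all genes).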
